A study of Mus musculus with 15 samples.

Results

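RNA-seq of adult neural stem cells (aNSCs) was used to follow 39 genes of the integrated stress response (ISR) and of protein folding in the endoplasmic reticulum (ER). The genes were taken by name: 8 ISR transcription factors and regulators, 8 amino acid and one-carbon enzymes, 6 tRNA synthetases, 3 genes of the ER stress sensors and Xbp1, and 14 ER chaperones and folding genes. They were 39 of 53801 genes in the table, of which 30011 had at least 1 count, and all 39 passed the filter on low counts in each comparison. The aNSCs had been grown in suspension from the subventricular zone, and the mice, of the mixed strain C57BL6/J-129sv, were 2 months old. All mice carried the Rosa26-CreERT2 transgene, a recombinase present in every cell type that acts once 4-hydroxytamoxifen (4-OHT) is added, and either 1 floxed Trrap allele (Fl/+) or 2 (Fl/Fl). Trrap is an adaptor of histone acetyltransferase complexes. Each of the 3 groups had 5 cultures: Fl/+ with no treatment and Fl/+ with 4-OHT, both from mice 19, 24, 26, 35 and 36, and Fl/Fl with 4-OHT, from mice 27, 28, 29, 37 and 39. The labels give 5 days of treatment, whereas the methods describe a shorter exposure to 4-OHT followed by fresh medium. The floxed allele of Fl/+ cells can also recombine, since CreERT2 was exposed to 4-OHT in every treated culture, and the Fl/+ cultures could keep 1 intact allele. None of the 15 samples was an untreated Fl/Fl culture, and the Fl/Fl and Fl/+ cultures came from different mice. Differences between these mice before 4-OHT therefore cannot be told apart from the loss of Trrap. Changes given as after deletion are differences of Fl/Fl 4-OHT from Fl/+ 4-OHT cultures.

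In the ISR, one of several kinases phosphorylates the translation factor eIF2 when amino acids run short or unfolded protein collects in the ER. Most translation then slows while the mRNA of the transcription factor ATF4 is translated more, and ATF4 activates genes for amino acid synthesis, amino acid uptake and tRNA charging. The unfolded protein response (UPR) adds the sensors IRE1 (gene Ern1), which splices the Xbp1 mRNA, and ATF6, which is cut and moves to the nucleus. Both factors activate genes of the ER chaperones. Phgdh, Psat1 and Psph together make serine, which feeds the one-carbon cycle. Counts per gene cannot tell spliced from unspliced Xbp1, nor show how much of an mRNA is translated.

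Known binding sequences for both branches were read in the promoters, and their matches are shown by gene. The genes were taken by name for these same branches, so a share above that of all genes was likely beforehand. The shares below are a description and not a test. RefSeq promoter windows of GRCm38.p6, from 250 bases before to 50 bases after the start of the gene, were given for 34 of the 39 genes and were searched on both strands. The ER stress response element was searched as CCAAT, any 9 bases, CCACG, and is known to bind ATF6 together with the factor NF-Y. It was present in 7 of the 12 ER chaperone windows (58.3%), in none of the other 22 member windows and in 37 of 27025 windows of all genes (0.137%). One line per match follows, with the fixed letters in capitals and the strand as printed.
Hspa5 (chr2:34772025-34772043, plus strand): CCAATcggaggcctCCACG
Hsp90b1 (chr10:86705638-86705656, minus strand): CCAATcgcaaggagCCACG
Hsp90b1 (chr10:86705533-86705551, plus strand): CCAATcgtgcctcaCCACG
Dnajc3 (chr14:118937827-118937845, plus strand): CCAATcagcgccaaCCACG
Pdia6 (chr12:17266491-17266509, plus strand): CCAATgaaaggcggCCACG
Calr (chr8:84847075-84847093, plus strand): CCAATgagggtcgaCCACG
Canx (chr11:50325800-50325818, minus strand): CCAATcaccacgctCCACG
Creld2 (chr15:88819520-88819538, minus strand): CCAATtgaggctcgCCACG

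The C/EBP-ATF response element, which ATF4 is known to bind with a C/EBP partner, was searched as TGATGNAA. It was present in 8 of the 34 member windows (23.5%) against 4.51% of the windows of all genes, and these were 2 of the 8 regulators, 2 of the 8 enzymes, 3 of the 4 tRNA synthetases with a window and 1 of the 12 ER chaperones. No member window held both motifs. Each match is shown with 6 bases on either side and the fixed letters in capitals.
Trib3 (chr2:152344033-152344052, plus strand): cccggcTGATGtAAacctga
Chac1 (chr2:119351043-119351062, minus strand): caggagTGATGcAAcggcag
Asns (chr6:7693219-7693238, minus strand): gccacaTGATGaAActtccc
Pycr1 (chr11:120643838-120643857, minus strand): tgtgtaTGATGcAAtgcaca
Aars (chr8:111033724-111033743, minus strand): ctcggcTGATGcAAtgctca
Aars (chr8:111033845-111033864, minus strand): gcgctcTGATGaAAagtgac
Gars (chr6:55037965-55037984, minus strand): ggtgcaTGATGaAAtagcgc
Yars (chr4:129189900-129189919, plus strand): ctcagcTGATGcAAcccgac
Herpud1 (chr8:94386311-94386330, minus strand): gcgggcTGATGcAAcccgcc

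For 4 of the genes that hold a match and were called in a comparison, the 250 bases before the start are shown with the motif in capitals. In the Gars window the capitals are the reverse complement of the motif. A match is a description of the letters and does not show that a factor was bound.
Hspa5 (chr2:34771840-34772089, plus strand): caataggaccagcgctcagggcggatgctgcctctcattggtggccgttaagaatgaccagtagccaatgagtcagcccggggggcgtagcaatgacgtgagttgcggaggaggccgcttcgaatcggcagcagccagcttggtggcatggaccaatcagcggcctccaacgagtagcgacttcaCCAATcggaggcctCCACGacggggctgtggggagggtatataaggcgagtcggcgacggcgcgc
Asns (chr6:7693210-7693459, minus strand): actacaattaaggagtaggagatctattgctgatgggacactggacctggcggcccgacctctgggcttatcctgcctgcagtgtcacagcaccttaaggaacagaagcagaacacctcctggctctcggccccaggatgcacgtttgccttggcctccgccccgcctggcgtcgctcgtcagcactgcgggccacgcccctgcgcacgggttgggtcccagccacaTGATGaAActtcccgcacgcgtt
Pycr1 (chr11:120643749-120643998, minus strand): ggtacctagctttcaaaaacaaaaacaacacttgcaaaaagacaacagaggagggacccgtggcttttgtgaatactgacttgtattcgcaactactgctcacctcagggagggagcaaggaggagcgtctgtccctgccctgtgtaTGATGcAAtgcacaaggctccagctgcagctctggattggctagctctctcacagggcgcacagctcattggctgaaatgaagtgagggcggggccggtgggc
Gars (chr6:55037751-55038000, plus strand): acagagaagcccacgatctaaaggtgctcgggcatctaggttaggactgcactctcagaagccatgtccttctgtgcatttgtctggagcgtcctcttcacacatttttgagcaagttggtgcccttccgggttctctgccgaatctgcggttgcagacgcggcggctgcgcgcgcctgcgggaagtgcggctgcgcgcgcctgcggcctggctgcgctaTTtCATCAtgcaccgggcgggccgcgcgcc

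The libraries held 25720034 to 32187097 assigned counts, so that 3 counts, taken as the floor of detection, were worth 0.0932 to 0.1166 CPM, the unit of level used here, which is a gene's counts scaled to a common library total. Library totals were adjusted by the trimmed mean of M-values (TMM), and the floor covers counting error only. Trrap, the targeted gene, had 82.8 to 142 CPM in Fl/Fl 4-OHT, 138 to 204 CPM in Fl/+ 4-OHT and 179 to 214 CPM in untreated Fl/+ libraries, and fell after deletion (log2 change -0.64 ± 0.160, adjusted p 0.0115). The library Fl/Fl 29, at 142 CPM, lay within the range of the Fl/+ 4-OHT libraries, while the other Fl/Fl libraries were at 82.8 to 115 CPM. Changes are log2 fold changes ± SE, and adjusted p-values are those of edgeR's quasi-likelihood test over all genes unless another tool is named. Exons outside the removed segment are still counted. In 2 respects libraries went against their labelled sex. The library Fl/Fl 39, labelled female, had 0.313 CPM of the female-specific RNA Xist and 54.1 CPM of the Y-linked gene Ddx3y, and mouse 36, labelled male, had Ddx3y at 47.7 CPM and Xist at 5.89 CPM untreated and 52.9 and 74.7 CPM after 4-OHT. Fl/Fl 29, labelled male, had Ddx3y at 23.5 CPM, against 53.1 to 56.3 CPM in Fl/Fl 27, 28 and 39. All 10 neural stem cell markers had a mean of at least 1 CPM, and of 6 microglial markers 4, Aif1, Cx3cr1, Tmem119 and C1qa, had at most 3 counts in every library. The other two, P2ry12 and Csf1r, were highest in Fl/Fl 39, at 1.04 and 0.869 CPM. Of 6 endothelial and mural markers only Cldn5 had at most 3 counts in every library, while Kdr was at 4.12 to 8.01 CPM and Col1a1 at 0.663 to 3.30 CPM. Values from bulk RNA cannot separate fewer cells of a type from less RNA per cell.

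Across the untreated Fl/+ cultures the most abundant of the 39 genes per length were ER chaperones, though not all genes of that list were abundant. On the scale of mean CPM per kilobase of exon, Calr reached 405, Pdia3 215, Hsp90b1 201, Canx 173 and Hspa5 153, and of the other lists Psat1 (103) and Atf4 (101) came nearest. Among the ER chaperone genes Dnajb9 (13.6), Herpud1 (12.6) and Sdf2l1 (12.2) were well below Shmt2 (65.9) and Gars (65.8). Trib3 (1.11), the sensor gene Ern1 (1.33), Chac1 (2.91) and Cebpb (3.24) were the lowest. In Fl/Fl 4-OHT cultures the coefficient of variation was 60.0% for Trib3, 51.5% for Ddit3 and 43.5% for Chac1, all ISR genes that respond to stress, against 3.52% for the synthetase gene Sars and 5.98% for Ern1. Library 37 was the highest for all 5 genes, and without it the coefficients were 33.5%, 11.1%, 17.7%, 2.63% and 4.07% in the same order. A wide spread was not particular to the Fl/Fl group. Trib3, Ddit3 and Chac1 had coefficients of 50.2%, 42.7% and 46.4% in untreated Fl/+ cultures, and of 27.0%, 16.2% and 29.3% in Fl/+ 4-OHT cultures.

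**Figure D1:**
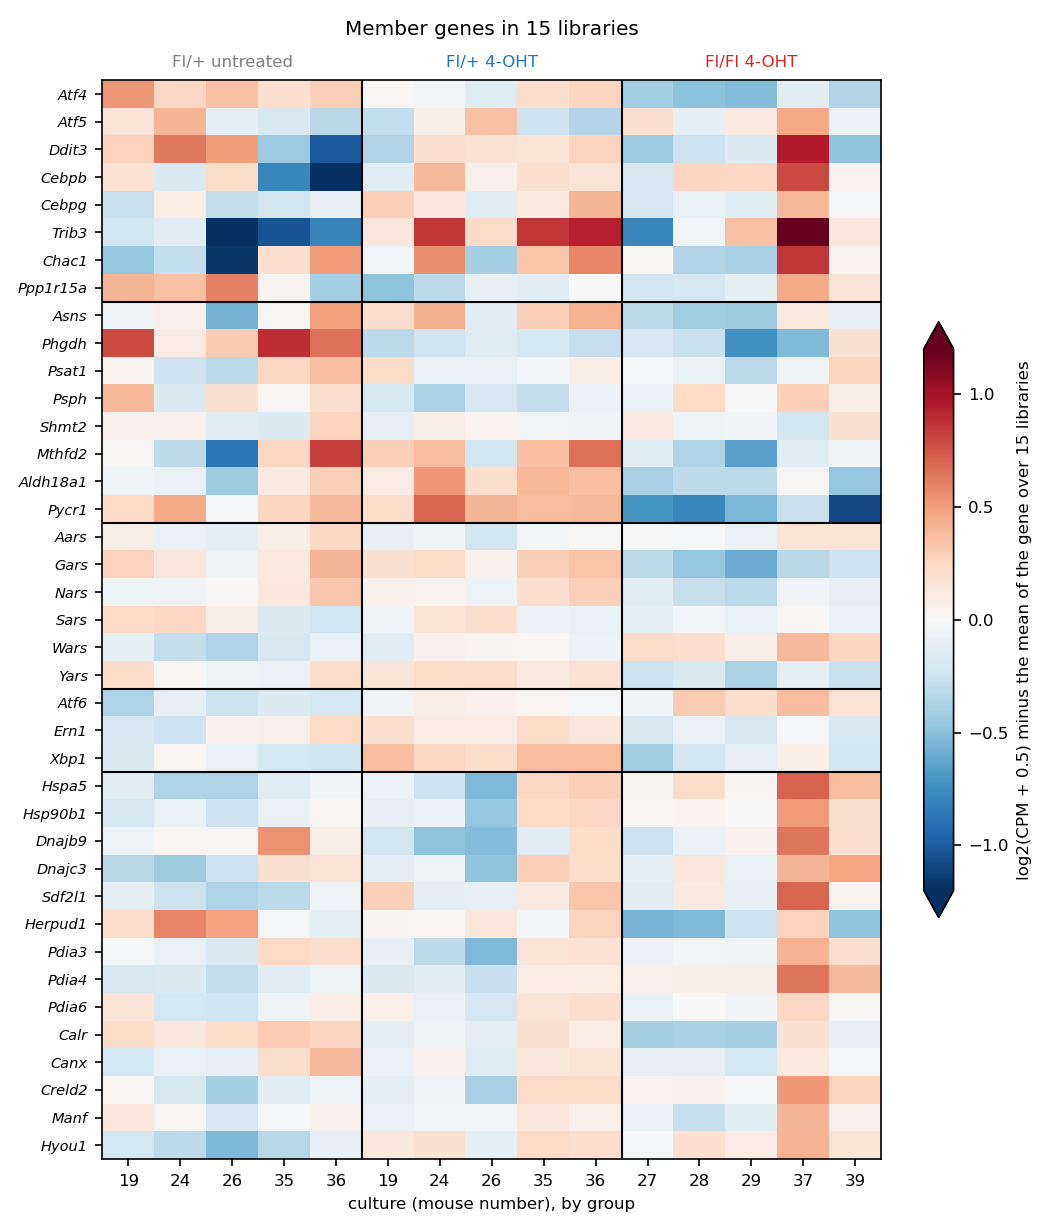
Heat map of the 39 genes (rows, by list from top to bottom: ISR factors, amino acid enzymes, tRNA synthetases, UPR sensors, ER chaperones) in 15 libraries (columns, mouse numbers within each group). Colour is log2(CPM + 0.5) minus the mean of the gene, from -1.2 to 1.2; library 37 is the highest Fl/Fl library for 32 of the 39 genes, and Pycr1, Gars and Atf4 are low across the Fl/Fl libraries.

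One Fl/Fl culture stood apart in these genes before any comparison. Library 37 was the highest of the 5 Fl/Fl libraries for 32 of the 39 genes, among them 13 of the 14 ER chaperones. The share over all genes was not counted, for this or any other library. In further lists, read below, library 37 was the highest for 9 of 11 genes of ER-associated degradation, 1 of 17 mitochondrial synthetases and 2 of 13 heat shock genes. It was also the only Fl/Fl library with the RNA pattern of a female, with 335 CPM of Xist against 0.249 to 0.361 CPM in the other 4, and 0.0387 CPM of Ddx3y against 23.5 to 56.3 CPM. Its Hspa5 was at 1216 CPM against 760.0 to 969.7 CPM in the other Fl/Fl libraries, and its Ddit3 at 32 CPM against 11.6 to 14.6 CPM. The median deviation of the 14 ER chaperone genes from their means was 0.42 (log2) in library 37 and -0.09 to 0.17 in the other 4 Fl/Fl libraries. The same library was the highest of its group for all 7 oligodendrocyte markers and for 5 of 6 astrocyte markers, and their part in its values was not tested. Within the Fl/+ groups the libraries of mouse 36 were most often the highest, for 17 of 39 genes untreated and 20 of 39 after 4-OHT. Those of mouse 26, with the RNA pattern of a female, were most often the lowest, for 19 genes untreated and 21 after 4-OHT. Mouse 24, which also had that pattern, was the highest for 9 and 8 genes and the lowest for 6 and 2.

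**Figure D2:**
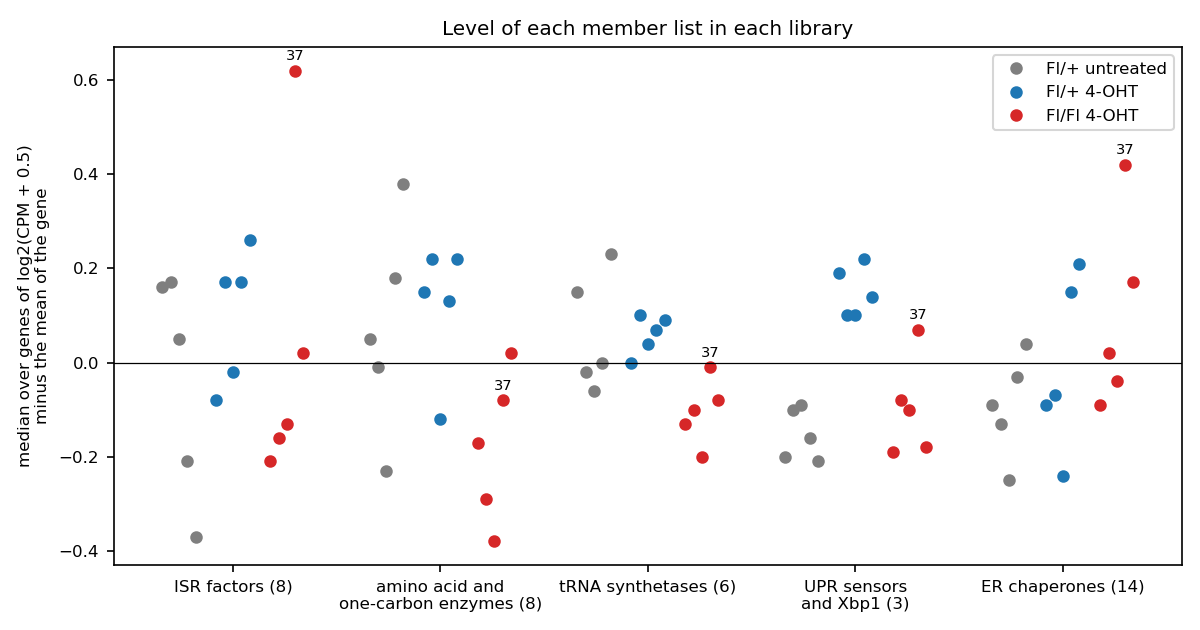
Median over the genes of each list of log2(CPM + 0.5) minus the mean of the gene (y axis, log2 units) in each of the 15 libraries (points, 5 per group; number of genes in brackets). Library 37 is the highest Fl/Fl point for the ISR factors (0.62) and the ER chaperones (0.42), and the 5 untreated Fl/+ points of the UPR sensors and Xbp1 (-0.21 to -0.09) all lie below the 5 Fl/+ 4-OHT points (0.10 to 0.22).

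Fl/Fl and Fl/+ cultures, both given 4-OHT but from different mice, were compared to see what differed where both Trrap alleles were floxed. Genes that make proline (Pycr1, Aldh18a1) and asparagine (Asns) and the synthetase genes Gars, Yars and Nars fell, together with Atf4 and Xbp1, the synthetase gene Wars and the serine enzyme gene Psph rose, and no ER chaperone passed the test as fitted here, though up to 3 did in other fits, given with that list. Of the 39 genes 12 were called (30.8%), 2 higher and 10 lower, with a median log2 change of -0.03. Of all 15036 genes tested 31.7% were called, 16.8% higher and 15.0% lower, with a median of 0.02. The share of members called was thus near that of all genes, and the members that were called lay mostly below 0. The groups did not overlap for 7 of the 39 genes, against 22.6% of all genes tested. Without the libraries of mice 36 and 39 the count was 8 of 39 genes, 1 higher and 7 lower, while that of all genes went from 4773 to 3513. Without Fl/Fl 37 it was 15, of which 2 were higher and 13 lower, while that of all genes was 4452. When libraries were scaled by their totals alone it was 13, 4 higher and 9 lower, with Pdia4 (log2 change 0.38, adjusted p 0.0347) and Atf6 (0.23, adjusted p 0.0292) added and Ern1 lost (adjusted p 0.0661).

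**Figure D3:**
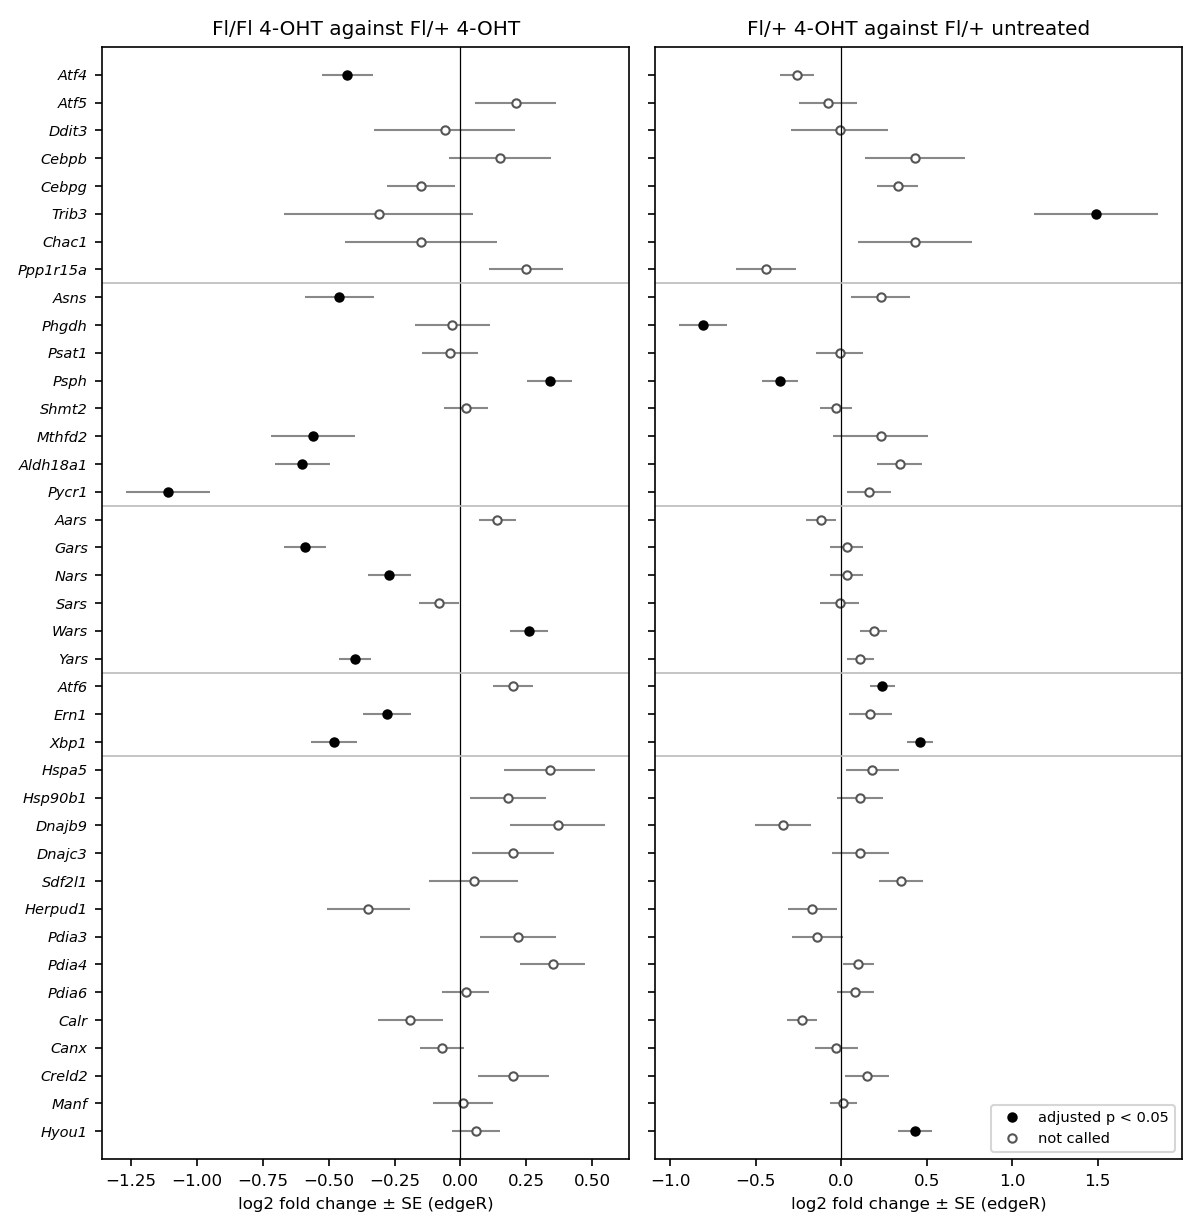
Log2 fold changes (x axis, points) with standard errors (bars) of the 39 genes, for Fl/Fl against Fl/+ 4-OHT (left) and for 4-OHT against no treatment in Fl/+ (right); grey lines separate the lists and filled points have an adjusted p under 0.05. On the left 10 filled points lie below 0 and 2 above; on the right 4 lie above 0 and 2 below.

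Atf4, the central ISR transcription factor, was the only 1 of the 8 regulators that was called after deletion. It was at 193, 186, 172, 219.8 and 228 CPM in the Fl/+ 4-OHT libraries 19, 24, 26, 35 and 36, and at 144, 136, 133, 174 and 149 CPM in the Fl/Fl libraries 27, 28, 29, 37 and 39. Only Fl/Fl 37 reached the range of the Fl/+ cultures. The mean fell from 199.7 ± 23.4 to 147 ± 16.5 CPM (mean ± SD, n = 5 each), with a log2 change of -0.43 ± 0.0962 (adjusted p 0.00667). In the run of mouse numbers below 30 the difference in mean log2 CPM was -0.42, and in the run from 35 up it was -0.47. Atf4 (ENSMUSG00000042406) lies on GRCm38 chromosome 15, 80255184 to 80257541, plus strand.

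Ddit3, which encodes the ISR factor CHOP, was not called. It was at 12.6, 18.9, 18.4, 18.3 and 19.8 CPM in the Fl/+ 4-OHT libraries and at 11.9, 13.6, 14.6, 32 and 11.6 CPM in the Fl/Fl libraries, in the same order of mice. Of the Fl/Fl libraries 4 lay below the Fl/+ 4-OHT libraries of mice 24, 26, 35 and 36, and library 37 lay above all. Its log2 change was -0.06 ± 0.268 (adjusted p 0.887) and became -0.44 (adjusted p 0.0418) without Fl/Fl 37. Ddit3 has a second, short gene model in the table that held 0 counts.

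The other 6 regulators were not called. Log2 fold changes were 0.21 for Atf5, 0.15 for Cebpb, -0.15 for Cebpg, the partner of ATF4 on its target promoters, -0.31 for Trib3, -0.15 for Chac1 and 0.25 for Ppp1r15a, which recruits a phosphatase to eIF2. Their standard errors ran from 0.130 for Cebpg to 0.359 for Trib3. In the same order the values without Fl/Fl 37 were 0.10, -0.04, -0.28, -0.73, -0.45 and 0.12, none of them called (adjusted p 0.0678 to 0.875). Genes upstream of Atf4 were read from a list of 11 eIF2 kinase, eIF2 and eIF2B genes, of which 1 rose and 2 fell (27.3% called, beside 31.7% of all genes). Eif2ak3, which encodes the ER stress kinase PERK, fell by 0.42 on the log2 scale (SE 0.0815, adjusted p 0.00344) and Ppp1r15b by 0.34 (adjusted p 0.00238), while Eif2ak2, the kinase that senses double-stranded RNA, rose by 0.44 ± 0.146 (adjusted p 0.0377).

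Among the amino acid and one-carbon enzymes 5 of 8 were called (62.5%, beside 31.7% of all genes), 4 lower and 1 higher. Pycr1, which makes proline in mitochondria, had the largest fall of the 39 genes in this comparison. It was at 16.2, 22.9, 18.6, 18.2 and 18.4 CPM in Fl/+ 4-OHT and at 8.24, 7.82, 9.31, 11.4 and 6.32 CPM in Fl/Fl 4-OHT libraries, with no overlap. This gave a log2 change of -1.11 ± 0.159 (adjusted p 0.000606), and the exact two-sided permutation p of 0.00794 was the smallest that 5 against 5 libraries allow. Pycr1 (ENSMUSG00000025140) lies on chromosome 11, 120635712 to 120643769, minus strand, and its promoter window holds the C/EBP-ATF element shown above.

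Aldh18a1 catalyses the earlier step of proline synthesis from glutamate and moved the same way. Its values were 200.2, 269, 216, 247 and 240.1 CPM in Fl/+ 4-OHT and 142, 151, 150.3, 189 and 135 CPM in Fl/Fl 4-OHT libraries. The highest Fl/Fl value was below the lowest Fl/+ value. Its log2 change after deletion was -0.60 ± 0.105 (adjusted p 0.00194), with -0.62 and -0.61 within the lower and the higher run of mouse numbers. Aldh18a1 (ENSMUSG00000025007) lies on chromosome 19, 40550257 to 40588463, minus strand.

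Asns, which makes asparagine, fell from 81.1 ± 12.3 to 58.5 ± 10.1 CPM (log2 change -0.46 ± 0.130, adjusted p 0.0201), and without the libraries of mice 36 and 39 its adjusted p was 0.0606. Mthfd2, a mitochondrial folate enzyme, fell from 30.5 ± 6.39 to 20.4 ± 3.37 CPM (log2 change -0.56 ± 0.160, adjusted p 0.0205), and with one dispersion over all 15 libraries its adjusted p was 0.1. Psph, the last enzyme of serine synthesis, rose from 55.6 ± 4.50 to 69.9 ± 7.96 CPM (log2 change 0.34 ± 0.0856, adjusted p 0.0110). Log2 fold changes of Phgdh, Psat1 and Shmt2 were -0.03, -0.04 and 0.02, with standard errors of 0.0838 to 0.141.

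Of the 6 member tRNA synthetases 4 were called (66.7%, beside 31.7% of all genes), 3 lower and 1 higher. Gars, which charges the glycine tRNA in the cytosol and in mitochondria, was at 204, 210.3, 188, 222 and 227 CPM in Fl/+ 4-OHT and at 146, 132, 119, 143 and 152 CPM in Fl/Fl 4-OHT libraries. The groups did not overlap. Its log2 change was -0.59 ± 0.0793 (adjusted p 0.000457), the lowest p of the 39 genes here, and it was -0.60 within each run of mouse numbers. Gars (ENSMUSG00000029777) lies on chromosome 6, 55038007 to 55079500, plus strand. Yars (tyrosine) fell by 0.40 on the log2 scale (SE 0.0623, adjusted p 0.00101) and Nars (asparagine) by 0.27 ± 0.0819 (adjusted p 0.0281). Wars (tryptophan) rose by 0.26 ± 0.0714 (adjusted p 0.0171). Without the libraries of mice 36 and 39 the adjusted p was 0.073 for Nars and 0.0901 for Wars. The call of Nars was also lost without Fl/Fl 28 or 29 or Fl/+ 35 or 36 (adjusted p 0.0534 to 0.062), and that of Wars without Fl/+ 19 or 36 (0.0627 and 0.052). Aars was at a log2 change of 0.14 and Sars at -0.08, and neither was called.

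The other tRNA synthetases were read from 2 lists, one of 14 further cytosolic enzymes and one of 17 mitochondrial enzymes. Of all 20 cytosolic synthetase genes 11 were called after deletion, 9 lower and 2 higher, with a median log2 change of -0.20. Of the 17 mitochondrial genes 6 were called, all 6 higher, with a median of 0.09. These were 55.0% and 35.3% of the lists, beside 31.7% of all genes tested, so the mitochondrial share was near that of all genes. The largest falls in the further cytosolic list were those of Iars (log2 change -0.51 ± 0.0831, adjusted p 0.00126) and Lars (-0.49 ± 0.0860, adjusted p 0.00189), and Dars rose (0.30, adjusted p 0.0339). Among the mitochondrial genes Sars2 (0.48 ± 0.117, adjusted p 0.00953) and Pars2 (0.32, adjusted p 0.0450) were highest. Without the libraries of mice 36 and 39, 9 of the 20 cytosolic genes were called, 8 of them lower, but 1 of the 17 mitochondrial genes. Without Fl/Fl 37, 10 cytosolic genes (9 lower) and 4 mitochondrial genes (all higher) were called. Fl/Fl 29, whose Trrap lay within the range of the Fl/+ 4-OHT libraries, was the lowest of its group for 15 of the 20 cytosolic genes. The difference between the lists themselves was not tested.

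**Figure D4:**
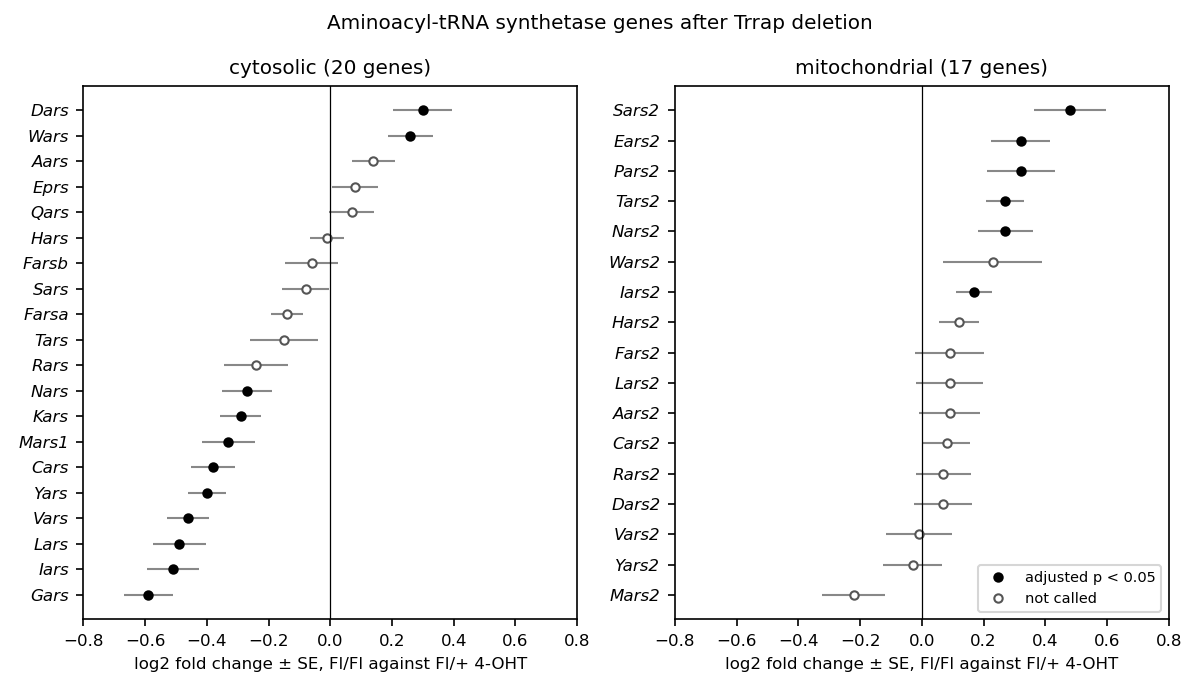
Log2 fold changes (x axis) with standard errors of the 20 cytosolic and 17 mitochondrial aminoacyl-tRNA synthetase genes, Fl/Fl 4-OHT against Fl/+ 4-OHT, ordered by value; filled points have an adjusted p under 0.05. On the left 9 filled points lie below 0 and 2 above, and on the right all 6 lie above 0.

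Among the UPR genes Xbp1 fell after deletion. Its values were 65.3, 60.0, 58.9, 65.4 and 65.8 CPM in Fl/+ 4-OHT and 37.8, 42.9, 46.9, 53.0 and 43.4 CPM in Fl/Fl 4-OHT libraries. The groups did not overlap, and library 37 was again the highest of its group. Xbp1 thus had a log2 change of -0.48 ± 0.0862 (adjusted p 0.00215), with -0.53 and -0.45 within the lower and the higher run of mouse numbers. Xbp1 (ENSMUSG00000020484) lies on chromosome 11, 5520659 to 5525893, plus strand. Ern1, the sensor that splices it, fell from 12.2 ± 0.455 to 9.96 ± 0.595 CPM without overlap (log2 change -0.28 ± 0.0907, adjusted p 0.0380), but its adjusted p was 0.0531 to 0.0774 when 1 of 7 libraries was left out: Fl/+ 19, 35 or 36, or Fl/Fl 27, 28, 29 or 39. Atf6 was at 71.3 ± 2.36 and 81.2 ± 8.74 CPM (log2 change 0.20, adjusted p 0.0634), and was called without Fl/Fl 27 (0.26, adjusted p 0.0175).

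None of the 14 ER chaperone and folding genes was called by edgeR's test in this comparison, while 2 had an unadjusted p under 0.05. Pdia4 (adjusted p 0.0511) was called higher by DESeq2's Wald test (0.0487), with one dispersion over all 15 libraries (0.0422) and without Fl/Fl 27 (0.0471). Hspa5, which encodes the chaperone BiP, was at 711, 625, 515, 884 and 909 CPM in Fl/+ 4-OHT and at 760.0, 867, 761, 1216 and 969.7 CPM in Fl/Fl 4-OHT libraries. The groups overlapped in the pooled data, but cultures of mice numbered from 35 up had more Hspa5 than those numbered below 30 in both groups. Within the lower run the 3 Fl/Fl libraries lay above the 3 Fl/+ libraries (difference in mean log2 CPM 0.38), and within the higher run the 2 Fl/Fl libraries lay above the 2 Fl/+ libraries (0.28). For Hspa5 the log2 change was 0.34 ± 0.173 (adjusted p 0.152), and 0.35 with an adjusted p of 0.0215 once the run of mouse numbers was a covariate, with library 37 the highest of all.

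With that covariate the count of all genes called went from 4773 to 5459. It called 3 ER chaperone genes, all higher: Hspa5, Dnajb9, an ER co-chaperone of BiP (log2 change 0.36, adjusted p 0.0334), and Pdia4, a disulphide isomerase (0.34, adjusted p 0.00385). Without Fl/Fl 37, in the fit without the covariate, these 3 were at 0.21, 0.20 and 0.23 (adjusted p 0.356, 0.358 and 0.115), and 2 other genes of the list were called, both lower. Herpud1, a factor of ER-associated degradation, was at a log2 change of -0.55 (adjusted p 0.00345) without that library and -0.35 (adjusted p 0.107) with it. Calr, the calcium-binding lectin chaperone, was at -0.32 (adjusted p 0.0329) without it and -0.19 (adjusted p 0.257) with it. The other 9 genes, Hsp90b1, Dnajc3, Sdf2l1, Pdia3, Pdia6, Canx, Creld2, Manf and Hyou1, had pooled log2 changes from -0.07 for Canx to 0.22 for Pdia3. Manf overlaps Rbm15b on the same strand, so its count is uncertain.

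Further genes of these pathways came from lists drawn up by function. Of 17 further ATF4 targets 6 were called after deletion (35.3%, beside 31.7% of all genes), all lower, with a median log2 change of -0.34. It was 9 of 17, 8 lower and 1 higher, without Fl/Fl 37. Slc7a1, a carrier of arginine and lysine, was at 93.6, 90.8, 65.6, 96.5 and 98.6 CPM in Fl/+ 4-OHT and at 36.2, 34.0, 24.9, 38.5 and 39.7 CPM in Fl/Fl 4-OHT libraries, with no overlap (log2 change -1.35 ± 0.138, adjusted p 0.000117). Eif4ebp1, a brake on cap-dependent translation, fell by 0.89 ± 0.192 (adjusted p 0.00546). Of 14 further ER folding enzymes 3 rose and 3 fell (42.9% called). Ero1lb (log2 change 0.91, adjusted p 0.00926) and Sil1, a BiP exchange factor (0.69, adjusted p 0.00353), were the largest rises, and Pdia5 (-0.52, adjusted p 0.0133) and P4hb (-0.48, adjusted p 0.00937) the largest falls.

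The share called was 36.4% of the genes of ER-associated degradation, 20.0% of the further sensors and proteases, 22.2% of the further folate and glycine enzymes and 16.7% of the heat shock genes, beside 31.7% of all genes. Of 11 genes of ER-associated degradation 3 rose and 1 fell, against 1 that rose without the libraries of mice 36 and 39, with Erlec1 (log2 change 0.60, adjusted p 0.00125) and Derl1 (0.38, adjusted p 0.0195) the highest and Edem1, a lectin that hands misfolded glycoproteins on, the lowest (-0.49, adjusted p 0.0168). Of the 5 further ER stress sensors and proteases Mbtps1, the protease that cuts ATF6, rose (0.40, adjusted p 0.00523). Of 9 further folate and glycine enzymes Mthfd1 rose (0.28, adjusted p 0.0452) and Mthfd2l fell (-0.53, adjusted p 0.00743). The heat shock genes of the cytosol and mitochondria are a separate folding system, and of their 12 tested genes 2 fell, Hsp90ab1 (-0.34, adjusted p 0.00937) and Dnajb1 (-0.24, adjusted p 0.00849).

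The treated and untreated Fl/+ cultures were compared to see what 4-OHT changed while an intact Trrap allele could remain. This comparison shares the Fl/+ 4-OHT libraries with the one above. Xbp1, Atf6, Trib3 and the ER chaperone gene Hyou1 rose, and the serine synthesis genes Phgdh and Psph fell. Of the 39 genes 6 were called (15.4%), 4 higher and 2 lower, with a median log2 change of 0.10. Of all 14821 genes tested 13.8% were called, 7.34% higher and 6.45% lower, with a median of -0.01. With a replicate block for the mouse 9 of the 39 genes were called, 7 higher and 2 lower, beside 25.7% of all genes, and Cebpg, Aldh18a1 and Sdf2l1 were added, all higher. The groups did not overlap for 4 of the 39 genes, against 12.0% of all genes tested. Without mouse 36 the count was 4 of 39 genes, 2 higher and 2 lower, with Trib3, Psph and Atf6 lost and Ppp1r15a, lower, added, while that of all genes went from 2044 to 1614. When libraries were scaled by their totals alone, the split of all calls went from 1088 higher and 956 lower to 1396 and 712, and that of the members to 4 and 1.

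Trib3, a pseudokinase induced by ATF4 and CHOP, had the largest rise of the 39 genes. It was at 3.44, 3.66, 0.840, 1.73 and 2.14 CPM untreated and at 4.53, 7.82, 4.86, 7.84 and 8.22 CPM after 4-OHT in mice 19, 24, 26, 35 and 36. It was higher after 4-OHT in 5 of 5 mice and the groups did not overlap. With 4-OHT its log2 change was 1.49 ± 0.362 (adjusted p 0.0205), or 1.59 with an adjusted p of 0.00752 with the block, and the exact two-sided sign-flip p of 0.0625 was the smallest that 5 mice allow. Without both libraries of mouse 36 the log2 change was 1.37 and the adjusted p 0.0712. Trib3 (ENSMUSG00000032715) lies on chromosome 2, 152337422 to 152344032, minus strand.

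Phgdh catalyses the first step of serine synthesis and fell. Its values were 114, 71.4, 82.5, 124 and 106 CPM untreated and 53.7, 56.4, 60.1, 57.4 and 54.9 CPM after 4-OHT, lower in 5 of 5 mice. The treated cultures lay close together, below all untreated cultures. Phgdh had a log2 change of -0.81 ± 0.139 (adjusted p 0.00383). Phgdh (ENSMUSG00000053398) lies on chromosome 3, 98313170 to 98339990, minus strand. Psph fell by 0.36 on the log2 scale (SE 0.107, adjusted p 0.0479), and Psat1, which acts between them, was at -0.01 ± 0.139. The call of Psph was kept without untreated Fl/+ 24 and lost without any 1 of the other 9 libraries (adjusted p 0.0574 to 0.117).

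Xbp1 rose in the same contrast. Its untreated values were 44.9, 51.1, 47.5, 43.6 and 42.7 CPM, all below its values after 4-OHT, which are given above. For Xbp1 the log2 change was 0.46 ± 0.0764 (adjusted p 0.00345), with 0.36 and 0.60 within the lower and the higher run of mouse numbers. Atf6 rose from 60.6 ± 4.32 to 71.3 ± 2.36 CPM (log2 change 0.24 ± 0.0711, adjusted p 0.0472), a call that was likewise kept without untreated Fl/+ 24 and lost without any 1 of the other 9 libraries (0.0604 to 0.101). Hyou1, an exchange factor and chaperone beside BiP, rose from 125 ± 14.1 to 168 ± 15.9 CPM in 5 of 5 mice (log2 change 0.43 ± 0.0995, adjusted p 0.0166). Ern1 was at 0.17 ± 0.126.

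Atf4 had 274, 226, 243, 218 and 233 CPM untreated, and was lower after 4-OHT in 4 of 5 mice (log2 change -0.26 ± 0.0992, adjusted p 0.108). That difference lay in the lower run of mouse numbers, where it was -0.43 in mean log2 CPM, against -0.01 in the higher run. Ddit3 had 20, 25.6, 23.3, 11.9 and 7.85 CPM untreated. It was lower after 4-OHT in all 3 mice numbered below 30 (-0.47) and higher in both mice numbered from 35 up (0.94), and its pooled log2 change was -0.01 ± 0.285 (adjusted p 0.986). Hspa5 had 679, 575, 577, 671 and 724 CPM untreated, and its difference was 0.01 in the lower run and 0.36 in the higher run (pooled log2 change 0.18 ± 0.155, adjusted p 0.483).

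**Figure D5:**
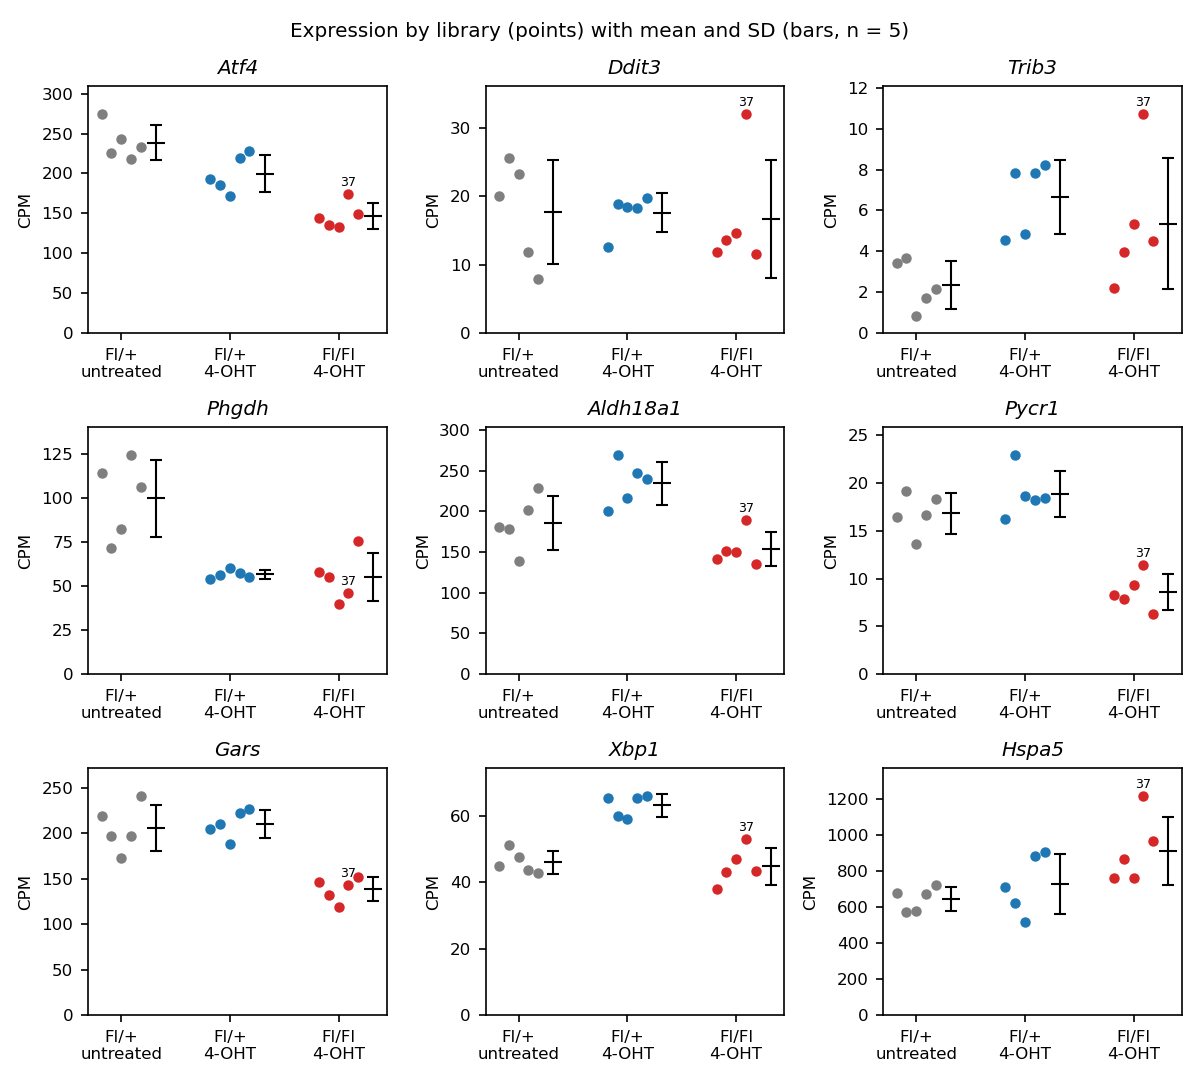
CPM (y axis, from 0) of 9 genes in each library (points, in order of mouse number within a group) with the mean and SD of 5 libraries (bars); library Fl/Fl 37 is marked. Pycr1, Gars, Aldh18a1 and Xbp1 are lower in all Fl/Fl than in all Fl/+ 4-OHT libraries, Trib3 and Xbp1 are higher and Phgdh lower in all Fl/+ 4-OHT than in all untreated libraries, and Ddit3 of library 37 (32 CPM) is the highest of 15.

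None of the 6 member synthetases was called after 4-OHT by edgeR's or DESeq2's test, and 1 had an unadjusted p under 0.05. Their log2 changes ran from -0.12 for Aars to 0.19 for Wars. Of all 20 cytosolic synthetase genes 1 rose, Vars (0.34 ± 0.102, adjusted p 0.0486). None of the 17 mitochondrial ones was called by edgeR's test, 3 had an unadjusted p under 0.05 and DESeq2 called 2. With the mouse block 2 cytosolic genes, Vars and Iars, were called higher and 1 mitochondrial gene, Cars2, lower. Of all genes 13.8% were called, and 25.7% with the block. Of the enzymes Asns, Mthfd2, Aldh18a1, Pycr1 and Shmt2 were at 0.23, 0.23, 0.34, 0.16 and -0.03. Of the 14 ER chaperones edgeR's test without the block called 1, Hyou1, with Sdf2l1 at 0.35 (adjusted p 0.0973, or 0.0366 with the block) and Dnajb9 at -0.34. Calr was at -0.23, lower in 5 of 5 mice (adjusted p 0.115), and was called by DESeq2's Wald test (0.0448) and with the run of mouse numbers as a covariate (0.0481).

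Of 17 further ATF4 targets 4 rose and 3 fell after 4-OHT (41.2% called, beside 13.8% of all genes), and with the mouse block 6 rose and 5 fell, beside 25.7% of all genes. Slc7a11, the cystine carrier, fell from 26.9, 50.1, 22.3, 38.1 and 40.8 CPM to 7.54, 18.4, 5.30, 13.3 and 13.4 CPM (log2 change -1.62 ± 0.329, adjusted p 0.00923), and Cth, which makes cysteine, fell by 0.78 (adjusted p 0.0454). Both act in the supply of cysteine. Vldlr (1.01 ± 0.183, adjusted p 0.00525) and the secreted glycoprotein gene Stc2 (0.84 ± 0.187, adjusted p 0.0139) rose. Of the further ER folding enzymes Ero1l, the oxidase that drives disulphide formation and is also known as a hypoxia-induced gene, rose from 33.0, 57.6, 16.6, 26.1 and 27.4 CPM to 112, 249, 103, 176 and 183 CPM (log2 change 2.36 ± 0.336, adjusted p 0.00161), and Ppib fell (-0.34, adjusted p 0.0448).

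Eif2ak3 rose by 0.49 on the log2 scale after 4-OHT (SE 0.0812, adjusted p 0.00345), the only call among the 11 eIF2 kinase, eIF2 and eIF2B genes without the block, while with it Eif2b2 was also called (0.26, adjusted p 0.0487). The ER stress sensor gene Creb3l1 rose by 1.10 ± 0.257 (adjusted p 0.0176), and Edem1 by 0.50 ± 0.134 (adjusted p 0.0306). Of the folate and glycine enzymes Mthfd1 (-0.40, adjusted p 0.0140) and Gldc (-0.38, adjusted p 0.0456) fell. None of the 12 heat shock genes tested was called by edgeR's or DESeq2's test without the block, and 3 had an unadjusted p under 0.05. With it 2 were called, both higher, Hsp90aa1 (0.36, adjusted p 0.0105) and Hsph1 (0.33, adjusted p 0.0232). The block also moved the calls from 1 to 2 sensors and proteases, from 2 to 3 folding enzymes and from 2 to 4 genes of ER-associated degradation, while the share of all genes called went from 13.8% to 25.7%.

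Markers of other cell types moved in the same contrast, in which 13.8% of all genes were called, or 25.7% with the mouse block. Of 7 oligodendrocyte markers 5 rose after 4-OHT, and their summed level was 212 to 703 CPM untreated, 562 to 1099 CPM in Fl/+ 4-OHT and 688 to 954 CPM in Fl/Fl 4-OHT cultures other than 37, which was at 2750.0 CPM. Of 6 astrocyte markers 1 rose and 3 fell (summed level 2891 to 3612 CPM untreated and 3026 to 4389.8 CPM after 4-OHT), and of 10 neural stem cell markers 1 rose and 4 fell. With the mouse block these were 2 and 3 for the astrocyte and 2 and 5 for the neural stem cell markers, and 2 of 6 neuron markers fell. After deletion, where 31.7% of all genes were called, 4 of the 10 neural stem cell markers and 2 of 6 neuron markers fell, and 1 oligodendrocyte and 1 astrocyte marker rose. Without Fl/Fl 37, 1 oligodendrocyte marker rose and 1 fell, and 1 astrocyte marker rose and 2 fell. Without the libraries of mice 36 and 39, 2 neural stem cell markers and 1 neuron marker fell. The share of counts from mitochondrial genes was 1.72% to 3.56% untreated, 0.849% to 1.74% in Fl/+ 4-OHT and 1.36% to 2.19% in Fl/Fl 4-OHT cultures. Their part in the results above was not tested.

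The third comparison, Fl/Fl 4-OHT against untreated Fl/+ cultures, joined the deletion and the treatment, and shares libraries with both others. Of the 39 genes 12 were called (30.8%), 6 higher and 6 lower, with a median log2 change of -0.01. Of all 15032 genes tested 30.7% were called, 15.7% higher and 15.1% lower. Without the libraries of mice 36 and 39 the count was 9 of 39, 5 higher and 4 lower, while that of all genes went from 4620 to 4011. When libraries were scaled by their totals alone it was 13 of 39, 8 up and 5 down, beside 3150 up and 1603 down among all genes. Here 5 of the 14 ER chaperones were called (35.7%). Hspa5 (0.52 ± 0.137, adjusted p 0.0153), Hyou1 (0.49 ± 0.104, adjusted p 0.00510), Pdia4 (0.45 ± 0.119, adjusted p 0.0149) and Creld2 (0.35 ± 0.121, adjusted p 0.0489) were higher. Calr was lower (-0.42 ± 0.121, adjusted p 0.0223). The call of Creld2 was kept without untreated Fl/+ 19 or Fl/Fl 29 and lost without any 1 of the other 8 libraries (adjusted p 0.0529 to 0.111), and that of Calr was lost without Fl/Fl 27, 28 or 29 (0.0581 to 0.062). Without Fl/Fl 37 the count was 12 of 39, 5 higher and 7 lower, with Creld2 lost, while that of all genes was 4033. Herpud1 was then called, at -0.71 (adjusted p 0.0107) against -0.52 (adjusted p 0.0644) with that library. It was also called without untreated Fl/+ 36 (0.0397) and, with all libraries kept, by DESeq2's Wald test (0.0426), with labelled sex as a covariate (0.0263) and with one dispersion over all 15 libraries (0.0244). With the run of mouse numbers as a covariate 15 of 39 genes were called, 8 higher and 7 lower, beside 5520 of all genes against 4620 without it. Added were Dnajc3 (0.31, adjusted p 0.00500) and Hsp90b1 (0.29, adjusted p 0.0277), both higher, and Nars (-0.24, adjusted p 0.0199).

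Of the other lists Atf4 had the lowest p of the 39 genes, with all 5 Fl/Fl libraries (133 to 174 CPM) below all 5 untreated ones (218 to 274 CPM) and a log2 change of -0.69 ± 0.0960 (adjusted p 0.000562). Pycr1 (-0.96 ± 0.168, adjusted p 0.00187), Phgdh (-0.84 ± 0.187, adjusted p 0.00629), Gars (-0.56 ± 0.101, adjusted p 0.00224) and Yars (-0.29 ± 0.0863, adjusted p 0.0248) were lower too, and the call of Yars was lost without untreated Fl/+ 19 or Fl/Fl 27, 29 or 39 (0.0507 to 0.0661). Wars (0.45 ± 0.0826, adjusted p 0.00242) and Atf6 (0.44 ± 0.0886, adjusted p 0.00393) were higher. Trib3 was at 1.19 (adjusted p 0.0702), the largest value of the 39 genes, and was called by DESeq2's Wald test (0.0283), with one dispersion over all 15 libraries (0.0381) and without Fl/Fl 27 (0.0400), but was at 0.77 (adjusted p 0.191) without Fl/Fl 37. Xbp1, which rose with 4-OHT and fell with deletion, was at -0.02 ± 0.0993 (adjusted p 0.882), and Eif2ak3 was at 0.07 (adjusted p 0.588). The mean of Xbp1 was 46.0 ± 3.37 CPM untreated, 63.1 ± 3.37 CPM in Fl/+ 4-OHT and 44.8 ± 5.64 CPM in Fl/Fl 4-OHT cultures, and that of Hspa5 was 645 ± 66.5, 729 ± 168 and 915 ± 189.5 CPM in the same order (mean ± SD, n = 5 each).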

How the data were processed

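Poly(A)-selected RNA from 15 cultures was turned into stranded libraries and read from a single end by the authors, who ran all libraries together. Per the labels and the study's methods, reads were extracted with bcl2fastq 1.8.4, mapped to GRCm38 with STAR 2.5.4b and assigned with featureCounts 1.5.0, uniquely mapped reads only. The table the authors deposited gives raw counts, unscaled, so near-identical copies are undercounted and PCR copies are counted as reads. Gene symbols, coordinates and exon lengths came from a GENCODE annotation of GRCm38, which matched 53706 of 53801 genes, and promoter sequences from RefSeq.

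Each comparison was fitted on its own 10 libraries with edgeR 4.0.16 in R 4.3.3: filterByExpr with a minimum count of 10, TMM scaling, the quasi-likelihood F test and Benjamini-Hochberg adjustment over all genes tested, called under 0.05. Standard errors are the log2 fold change divided by the square root of its F. For single genes exact two-sided permutation tests on log2(CPM + 0.5) used 252 arrangements, and sign-flip tests over 5 mice used 32. Within a group each culture is 1 mouse, so p-values of Fl/Fl against Fl/+ cultures measure the spread between mice. The main 4-OHT fit treated the 10 cultures of 5 mice as independent and ignored their pairing. With the replicate block its p-values measure the spread of the differences within mice. The 2 Fl/+ groups share mice: deviations from the group means correlated with r of 0.156 to 0.626 within a mouse and -0.549 to 0.339 between mice over 15435 genes, so the mouse number was a replicate block in an alternative. Other alternatives were DESeq2 1.42.0 (Wald test or size factors), library size alone, no filter, labelled sex or the run of mouse numbers as a covariate, one dispersion over all libraries, other pseudocounts and each library left out. Leaving out the libraries of mice 36 and 39 together was chosen after seeing the data.

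The members and lists were chosen with earlier results of these data known. Values in every library are given for members called in the deletion or 4-OHT comparison with an absolute log2 fold change of at least 0.5 and no overlap between the groups, and for Atf4, Ddit3, Xbp1 and Hspa5. From each further list up to 2 called genes per direction with the largest change and a mean of at least 1 CPM were named.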

Additional observations from a re-analysis of the deposited data

Results flagged for a closer look

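In 117 sets of 5 libraries (39 genes in 3 groups), 7 held a library that stood apart from the other 4 by Dixon's criterion at the 95% level, which flags about 5% of sets by chance. Of these, 5 were the library Fl/Fl 4-OHT 37 at the upper end: Ddit3 at 32 CPM (others 11.6 to 14.6), Cebpg at 45.3 CPM (29.6 to 34.0), Chac1 at 10 CPM (3.90 to 5.46), Sdf2l1 at 26.0 CPM (14.3 to 17.1) and Pdia6 at 314 CPM (249 to 265). The others were Ddit3 in Fl/+ 4-OHT 19, at 12.6 CPM below 18.3 to 19.8 CPM, and Dnajb9 in untreated Fl/+ 35, at 46.1 CPM above 30.4 to 33.1 CPM. The effect of 4-OHT was also compared between labelled sexes in the Fl/+ cultures. None of the 39 genes was called by edgeR's test of the interaction with the mouse as a block, beside 16 of 14821 genes at an adjusted p under 0.05 and 1989 at an unadjusted p under 0.05. Labelled sex and the run of mouse numbers coincide in the Fl/Fl mice, so the like test of the deletion cannot be told apart from that run and was not run.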

How the results depend on the processing

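Of the 39 genes' fold changes under all alternatives, none changed direction where it was called, 1927 kept their side of the threshold, 72 called ones lost it, 38 others gained it and 108 that were not called changed sign, and all 234 permutation results with other pseudocounts stayed on their side. The count of genes called with 4-OHT was the one that moved most, from 2044 to 3809 with a replicate block for the mouse and to 3170 with the run of mouse numbers as a covariate. In the pairing by mouse 9 of 39 genes were called, 6 of them also without the block, and the 3 added ones are named in the comparison; no other member call changed. With 1 library left out, 1271 to 2522 genes and 4 to 6 members were called with 4-OHT, 3772 to 4734 genes and 9 to 15 members after deletion, and 3700 to 4735 genes and 10 to 12 members for Fl/Fl 4-OHT against untreated Fl/+. The 4-OHT count dropped by more than 1.5 times without Fl/+ 4-OHT 19 (1271) or 35 (1311). DESeq2's Wald test called 5641, 3003 and 5581 genes after deletion, with 4-OHT and between Fl/Fl 4-OHT and untreated Fl/+, and scaling by totals alone turned the deletion split from 2520 higher and 2253 lower to 2848 and 1951. The causes were not tested. Trib3, Cebpb and Chac1, with means of 2.36 to 7.22 CPM, had the fewest reads behind their values.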

Other observations

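Hspa8, the abundant constitutive heat shock chaperone of the cytosol, fell into 2 ranges that followed the mouse and not the treatment. In the untreated Fl/+ cultures of mice 19, 24 and 35 it was at 227, 188 and 249.9 CPM and after 4-OHT at 250.4, 227 and 251 CPM. In mice 26 and 36 it was at 56.3 and 51.2 CPM untreated and at 67.2 and 43.1 CPM after 4-OHT. The Fl/Fl cultures of mice 27, 28 and 29 had 200.4, 213 and 182 CPM, and those of mice 37 and 39 had 46.7 and 50.6 CPM. The gene was chosen after its values were seen. Whether the 2 levels reflect transcript amount or read mapping in the mixed strain background was not tested.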
